A study of Homo sapiens with 4 samples.

Results

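The 40 nuclear genes described here serve the copying, transcription and RNA processing of the mitochondrial genome in LNCaP prostate cancer cells, and 4 of them are nuclear regulators of that machinery. They form a list named by function, drawn up with earlier results of these data known, and all 40 were found among the 60675 genes of the deposited count files. After 72 h with the KDM5 inhibitor CPI-455, 8 of the 40 (20%) were higher and 9 (22.5%) were lower by at least 2-fold, shares close to the 21.0% higher and 21.3% lower of all tested genes. The replicative helicase TWNK fell 7.08-fold and the RNA chaperone subunit SLIRP rose 5.33-fold, while the partners with which their products work, POLG and LRPPRC, took other courses.

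RNA sequencing was performed on 4 cultures of LNCaP, an androgen-sensitive line established from a lymph node metastasis of prostate cancer. All 4 were grown in medium with hormone-depleted serum and received 1 nM R1881, a synthetic androgen, for 72 h. In the control group (n = 2) the androgen was given with vehicle alone, and in the treated group (n = 2) it was given with 50 µM CPI-455, a small molecule inhibitor of the KDM5 histone demethylases, which remove methyl groups from lysine 4 of histone H3. The study's methods call the replicates biological, and give the vehicle as DMSO, with a final percentage that differs between the methods and the sample labels. Cultures without androgen were not analysed here, so every value below compares androgen plus inhibitor with androgen plus vehicle in a single cell line.

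Mitochondria hold many copies of a small circular genome that encodes a few respiratory chain subunits with the ribosomal and transfer RNAs needed to translate them. Everything else that this genome needs is encoded in the nucleus: a DNA polymerase with its helicase and single-stranded DNA binding protein, an RNA polymerase with its own initiation and elongation factors, nucleases that cut the long primary transcripts, and factors that stabilise, polyadenylate, modify and degrade the products. Transcription factors such as NRF1 and ERRα and the PGC-1 coactivators are known to activate many of these nuclear genes.

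Assigned counts were 19623553 and 20690819 in the vehicle libraries and 9522920 and 5401588 in the CPI-455 libraries, so values of the treated group rest on fewer counts. Expression is given below as counts-per-million (CPM), scaled to the effective size of each library. The log2 expression of all tested genes correlated at 0.993 between the vehicle libraries and at 0.946 between the CPI-455 libraries. All 10 markers of luminal prostate cells passed the filter on low counts, but 7 of them were called lower by the rule given below, and their summed level was 1073 and 984 CPM in the vehicle libraries and 404 and 463 in the CPI-455 libraries. Of the markers of basal epithelium, fibroblasts, leukocytes and endothelium only COL1A1 and VWF passed the filter, and KRT5 had no count in any library. The fibroblast list summed to 5.21 and 4.30 CPM with vehicle and to 10.2 and 10.7 with CPI-455, with COL1A1 called higher at a log2 fold change of 1.00, and each of the other 3 lists stayed below 1.6. The part of these markers in the members' changes was not tested. In bulk RNA a smaller number of expressing cells and less RNA in each cell cannot be told apart.

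The regulator NRF1 is itself among the 40 genes, and the short sequence it is known to bind, GCGCANGCG, was looked for on either strand in the RefSeq promoters of the members, which run from 250 bases before to 50 bases after each transcription start (GRCh38.p14). A promoter was found for 35 of the 40. The core occurred in 9 of them (25.7%), against 14.3% of the 11155 promoters of protein-coding genes that were tested and 8.05% of all 27305 promoters of the table. Each match is shown in capitals within 30 bases, read 5′ to 3′ on the strand of the gene, so that genes called higher, called lower and not called can be compared letter by letter.
POLG2, chr17:64497049-64497078, minus strand: cacctccgttgCGCCTGCGCcgtggcctct
TFB1M, chr6:155314597-155314626, minus strand: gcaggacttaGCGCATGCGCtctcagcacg
REXO2, chr11:114439464-114439493, plus strand: agcgactattgCGCCTGCGCcagcgccggc
TFAM, chr10:58385337-58385366, plus strand: acgctctcccgCGCCTGCGCcaattccgcc
POLRMT, chr19:633540-633569, minus strand: cggcgcggGCGCATGCGCAGGCGcgggccg
TFB2M, chr1:246566259-246566288, minus strand: gctccgctgttCGCATGCGCaggctctagt
MTPAP, chr10:30349329-30349358, minus strand: ctcccccccgaCGCATGCGCgaaaacgcgc
ESRRA, chr11:64305420-64305449, plus strand: ctcgtccgggcGCGCAGGCGccgcccgccc
MRM1, chr17:36601523-36601552, plus strand: cctggcagccaCGCATGCGCaaaacaccgt

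The first 3 of these genes, POLG2, TFB1M and REXO2, were called higher with CPI-455 and are 3 of 7 such members with a promoter in the table. TFAM was called lower, as 1 of 6 such members, and the remaining 5 belong to the 22 members with a promoter that were not called. In POLRMT 3 matches on opposite strands overlap in 1 run, and in TFB1M 2 matches overlap. The same 9-base match CGCCTGCGC therefore stood near the start of POLG2 (first base at -13) and REXO2 (first base at 9), which rose, and of TFAM (first base at -62), which fell. A match is a description of the letters and does not show that the factor was bound.

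A core known to be bound by ETS factors such as GABP, CCGGAAGT, occurred in 8 member promoters (22.9%), against 8.32% of the promoters of tested protein-coding genes. The GC box GGGGCGGGG occurred in 4 (11.4%, against 28.0%), and the ERR site TCAAGGTCA in none of the 35 (0.170% of the promoters of tested protein-coding genes). GC content was similar, with a median of 63.7% in the members' promoters and 65.3% in those of tested protein-coding genes. The 150 bases before the start are shown for POLG2, the called-higher polymerase subunit with an NRF1 core, and for MRM2, the most reduced rRNA methyltransferase, with an ETS core. Capitals mark every match to any of the 4 sequences searched.
POLG2, chr17:64497055-64497204, minus strand: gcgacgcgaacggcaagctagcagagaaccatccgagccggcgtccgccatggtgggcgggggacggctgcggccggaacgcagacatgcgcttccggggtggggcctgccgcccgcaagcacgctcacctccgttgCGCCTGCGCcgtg
MRM2, chr7:2242206-2242355, minus strand: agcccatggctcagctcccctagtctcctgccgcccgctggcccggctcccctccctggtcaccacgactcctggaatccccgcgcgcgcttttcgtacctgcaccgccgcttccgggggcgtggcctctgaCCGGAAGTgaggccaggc
The NRF1 core of POLG2 lay just before its start, and the ETS core of MRM2 began at -18 with a match on the opposite strand beginning at 1.

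All 40 members passed the filter on low counts and were tested within a single edgeR fit over 17600 genes, with the false discovery rate (FDR) taken over all of them. A gene is called when its FDR is below 0.05 and it changed at least 2-fold, and log2 fold changes are CPI-455 over vehicle with a standard error (SE). The SE was derived from the test, as the absolute log2 fold change divided by the square root of the F statistic. The 8 members called higher are 20% of the list and the 9 called lower are 22.5%. Over all tested genes 21.0% were called higher and 21.3% lower, and over the 13813 tested protein-coding genes 15.6% and 24.4%, so the members were called about as often as genes in general. At any size of change 11 members passed the FDR in each direction (27.5% each), against 26.3% of protein-coding genes higher and 38.7% lower. Their median log2 fold change was -0.18, with an interquartile range from -0.95 to 0.46, beside -0.21 for protein-coding genes. After each library was corrected for a trend with gene length and GC (over exons), the members' median was 0.20 and that of protein-coding genes -0.052. With library totals in place of TMM scaling, the split of 8 higher and 9 lower became 2 higher and 11 lower, and the counts were also 2 and 11 with no filter on low counts.

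**Figure D1:**
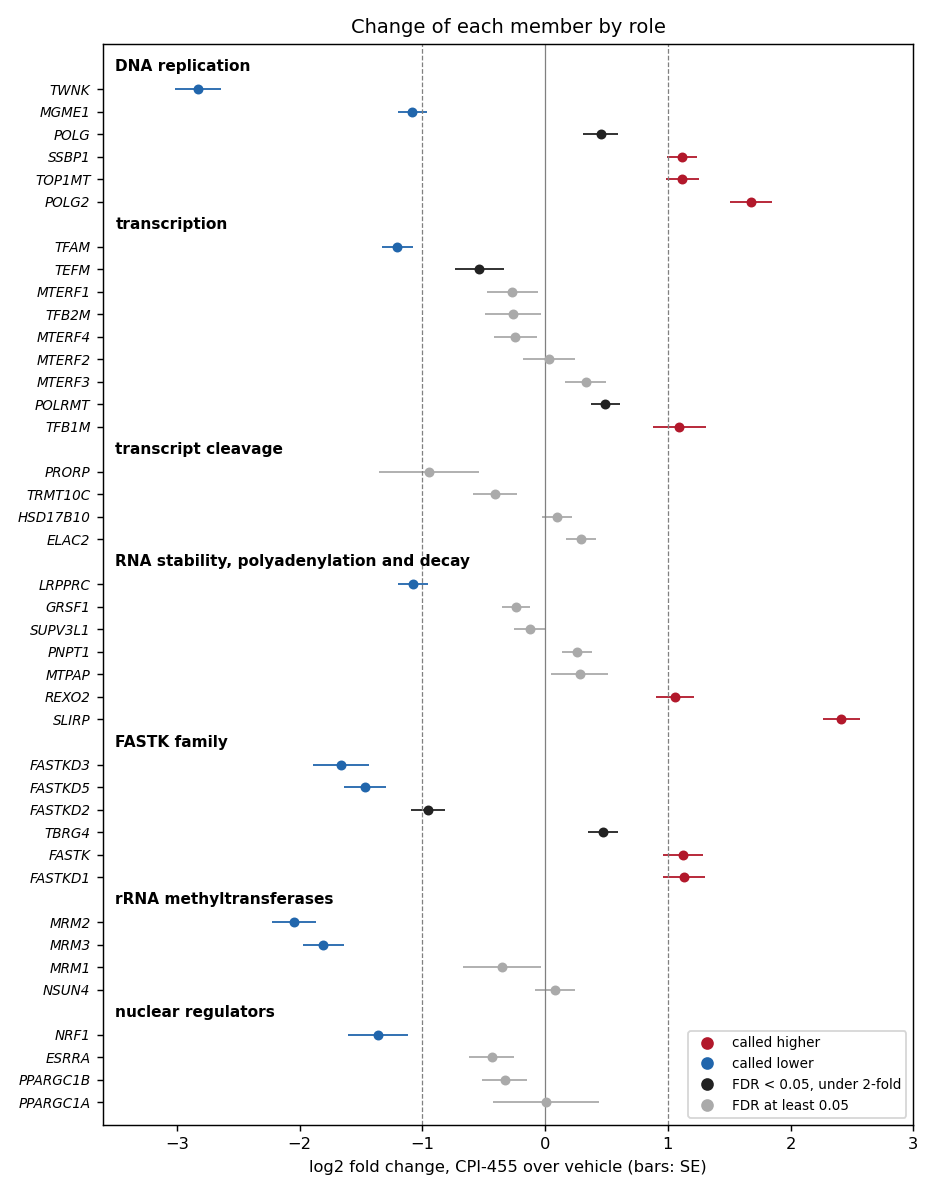
Log2 fold change of each of the 40 members (CPI-455 over vehicle, x axis) grouped by role (y axis), where bars are SE and dashed lines mark a 2-fold change. Red points were called higher (8), blue points lower (9), black points passed the FDR under 2-fold (5) and grey points did not pass it (18).

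In replication 3 of the 6 genes were called higher and 2 lower, with POLG between. Beside the counts of this and the later role groups stand the tested protein-coding genes, 15.6% called higher and 24.4% called lower. TWNK encodes Twinkle, the helicase that unwinds mitochondrial DNA ahead of the polymerase (GRCh38 chr10:100987367-100994401, plus strand). It measured 89.9 and 85.8 CPM in the vehicle libraries and 14.4 and 9.72 CPM with CPI-455. Both treated libraries were thus far below both controls, although only 128 and 49 counts stood behind them. TWNK fell by 2.82 on the log2 scale (SE 0.19, FDR = 2.7e-06), the most of any member.

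The catalytic and accessory subunits of DNA polymerase gamma did not change alike. POLG, the catalytic subunit, was at 73.2 and 67.1 CPM with vehicle and at 107 and 84.3 CPM with CPI-455. The groups did not overlap, but the log2 difference of 0.45 (SE 0.14, FDR = 0.0206) stayed under 2-fold. POLG no longer passed the FDR with library totals (0.26, FDR = 0.141), with no filter on low counts (0.30, FDR = 0.129) or without vehicle replicate 1 (0.53, FDR = 0.0558), vehicle replicate 2 (0.40, FDR = 0.158) or CPI-455 replicate 1 (0.26, FDR = 0.0531). POLG2, the accessory subunit that clamps the enzyme onto DNA, was at 11.9 CPM in both vehicle libraries and at 38.9 and 37.3 CPM with CPI-455. It rose by 1.68 on the log2 scale (SE 0.17, FDR = 3.09e-05).

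SSBP1, which coats the displaced single strand, was at 86.7 and 97.9 CPM with vehicle and at 191 and 209.8 CPM with CPI-455 (log2 fold change 1.12, SE 0.12, FDR = 4.4e-05). TOP1MT, the mitochondrial type I topoisomerase, was at 38.8 and 35.6 CPM with vehicle and at 81.1 and 80.5 CPM with CPI-455 (log2 fold change 1.12, SE 0.13, FDR = 7.42e-05). Both genes rose 2.17-fold. MGME1, the exonuclease that trims DNA ends left by replication, went the other way, from 147 and 148 CPM to 66.7 and 73.4 CPM. It fell by 1.08 on the log2 scale (SE 0.12, FDR = 4.68e-05), which is close to the 2-fold line.

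Of the 9 genes listed under transcription only TFAM and TFB1M were called, in opposite directions. TFAM packages mitochondrial DNA into nucleoids and bends the promoters for initiation (chr10:58385022-58399221, plus strand). It was at 120.4 and 126 CPM with vehicle and at 51.1 and 56.5 CPM with CPI-455, and it fell by 1.20 on the log2 scale (SE 0.13, FDR = 3.36e-05). With the length and GC trend removed its log2 fold change was -0.72, under the 2-fold line with an FDR of 0.000288. TFB1M, which dimethylates the small ribosomal RNA, was at 12.7 and 14.5 CPM with vehicle and at 24.4 and 34.3 CPM with CPI-455 (log2 fold change 1.09, SE 0.22, FDR = 0.00187). Without CPI-455 replicate 2 the value for TFB1M was 0.84.

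POLRMT, the mitochondrial RNA polymerase, was at 88.3 and 89.6 CPM with vehicle and at 131 and 119 CPM with CPI-455. The treated libraries were both above the controls, with a log2 fold change of 0.49 (SE 0.12, FDR = 0.00513), under 2-fold. It just missed the FDR without vehicle replicate 1 (FDR = 0.0559), without vehicle replicate 2 (FDR = 0.0519) and with no filter (FDR = 0.0522). TEFM, the elongation factor, passed the FDR on the lower side (log2 fold change -0.54, SE 0.20, FDR = 0.0393), and overlaps a neighbouring gene over 843 of 3224 exon bases. It did not pass with replicate number as a block (FDR = 0.0601), with DESeq2 (FDR = 0.129), with upper-quartile scaling (FDR = 0.138), with protein-coding genes alone (FDR = 0.142), with thinned libraries (FDR = 0.0774), with the length and GC trend removed (-0.28, FDR = 0.248), or without vehicle replicate 1 (FDR = 0.232) or 2 (FDR = 0.359). TFB2M, the initiation factor that melts the promoter, and the termination factor family members MTERF1 to MTERF4 had log2 fold changes between -0.27 and 0.33, and none of these 5 passed the FDR. MTERF3 did pass with upper-quartile scaling (0.51, FDR = 0.0236) and with protein-coding genes alone (0.51, FDR = 0.0218). MTERF3 missed it with thinned libraries (0.45, FDR = 0.0682) and with library totals (0.14, FDR = 0.489). MTERF4 was at -0.47 without CPI-455 replicate 2 and at -0.028 without CPI-455 replicate 1. In MTERF4 5071 of 9938 exon bases are shared with another gene, where the counting could not assign a fragment.

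No gene of primary transcript cleavage was called. RNase P, which cuts at the 5′ end of transfer RNAs, has the subunits TRMT10C, HSD17B10 and PRORP, and RNase Z, which cuts at the 3′ end, is encoded by ELAC2. The log2 fold changes were -0.41 for TRMT10C (FDR = 0.0694), 0.10 for HSD17B10 (FDR = 0.501) and 0.29 for ELAC2 (FDR = 0.0666). TRMT10C passed the FDR with replicate number as a block (-0.42, FDR = 0.0177), with library totals (-0.60, FDR = 0.0151) and with no filter (-0.56, FDR = 0.0112). It also passed with the length and GC trend removed (-0.41, FDR = 0.0406). TRMT10C did not pass with upper-quartile scaling (-0.23, FDR = 0.283), with protein-coding genes alone (-0.23, FDR = 0.287), with thinned libraries (-0.29, FDR = 0.17) or with DESeq2 (FDR = 0.115). It was at -0.70 without CPI-455 replicate 2 and at -0.14 without CPI-455 replicate 1. HSD17B10 turned to -0.70 (FDR = 0.000684) with the length and GC trend removed. ELAC2 passed the FDR with upper-quartile scaling (0.47, FDR = 0.0085) and with protein-coding genes alone (0.47, FDR = 0.00772). ELAC2 also passed with thinned libraries (0.47, FDR = 0.00824) and with the length and GC trend removed (0.43, FDR = 0.00734). ELAC2 did not pass with library totals (0.10, FDR = 0.488), with no filter (0.14, FDR = 0.509) or with DESeq2 (FDR = 0.0706). PRORP, the nuclease subunit, was counted 124 and 95 times (5.87 and 4.35 CPM) in the controls against 20 and 16 times (2.25 and 3.17 CPM) under CPI-455. In PRORP 3208 of 6982 exon bases are shared with another gene, where the counting could not assign a fragment. The log2 fold change of -0.95 (SE 0.41, FDR = 0.0669) did not pass. It was called without CPI-455 replicate 2 (-1.18, FDR = 0.00439), with library totals (-1.14, FDR = 0.0345) and with no filter on low counts (-1.10, FDR = 0.0435).

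The stability factors LRPPRC and SLIRP, whose products form a complex that protects mitochondrial mRNAs and keeps them polyadenylated, were called in opposite directions. LRPPRC had the highest CPM of any member with vehicle, at 305 and 365 CPM with vehicle and 160.2 and 157 CPM with CPI-455. It fell by 1.08 on the log2 scale (SE 0.12, FDR = 5.87e-05). The value was -0.93 without vehicle replicate 2 and -0.54 after the trend on length and GC was removed, both under 2-fold.

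SLIRP (chr14:77708071-77761104, plus strand) was at 19.2 and 17.4 CPM with vehicle and at 89.2 and 107 CPM with CPI-455. The lowest treated library was thus several times the highest control, and the rise of 2.41 on the log2 scale (SE 0.15, FDR = 2.17e-06) was the largest of any member. Of its 2631 exon bases 393 are shared with another gene, so the counts come from the rest of the gene.

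On the decay side, REXO2, the oligoribonuclease that clears short RNA remnants, was at 29.2 and 31.2 CPM with vehicle and at 56.6 and 70.2 CPM with CPI-455. It rose by 1.06 on the log2 scale (SE 0.16, FDR = 0.000305), the called member nearest to the 2-fold line, and it was at 0.90 without CPI-455 replicate 2. The helicase SUPV3L1 and the exoribonuclease PNPT1, which together form the degradosome, the poly(A) polymerase MTPAP and the granule protein GRSF1 were not called. Their log2 fold changes ran from -0.24 for GRSF1 to 0.28 for MTPAP, and none passed the FDR. With the length and GC trend removed PNPT1 was at 0.71 (FDR = 0.000368) in place of 0.26, and MTPAP at 0.68 (FDR = 0.018). PNPT1 also passed the FDR with upper-quartile scaling (0.44, FDR = 0.0115), with protein-coding genes alone (0.44, FDR = 0.0103) and with thinned libraries (0.43, FDR = 0.0118). With at least 10 counts required in every library it passed narrowly (0.31, FDR = 0.0475). PNPT1 did not pass with library totals (0.073, FDR = 0.63), with no filter (0.11, FDR = 0.615) or with DESeq2 (FDR = 0.13). Of these uncalled genes MTPAP was the most variable, at 48.6 and 40.8 CPM with vehicle and at 40.6 and 69.6 CPM with CPI-455. Its treated libraries thus lay on either side of the controls.

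Members of the FASTK family, RNA-binding proteins of the mitochondrial matrix that act on individual mitochondrial transcripts, all passed the FDR, 3 in each direction. Of tested protein-coding genes 26.3% passed it on the higher side and 38.7% on the lower side. FASTK, the founding member, was at 79.4 and 65.6 CPM with vehicle and at 181 and 134 CPM with CPI-455 (log2 fold change 1.13, SE 0.16, FDR = 0.000278), with a value of 0.89 without CPI-455 replicate 1. FASTKD1 was at 47.2 and 33.9 CPM with vehicle and at 89.5 and 88.4 CPM with CPI-455 (log2 fold change 1.13, SE 0.17, FDR = 0.000325), with a value of 0.93 without vehicle replicate 2. Both genes thus sat close to the line that defines a call. TBRG4, also known as FASTKD4, was higher by 0.47 on the log2 scale (SE 0.12, FDR = 0.00767), under 2-fold. TBRG4 missed the FDR with library totals (0.28, FDR = 0.0666), with no filter (0.32, FDR = 0.091), and without vehicle replicate 1 (FDR = 0.0994) or 2 (FDR = 0.0748).

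The other 3 family members were lower. FASTKD3 was at 22.5 and 19.9 CPM with vehicle and at 6.52 and 6.94 CPM with CPI-455, and it fell by 1.66 on the log2 scale (SE 0.23, FDR = 0.000195). FASTKD5, needed to mature transcripts that no transfer RNA flanks, was at 51.5 and 52.2 CPM with vehicle and at 20.9 and 16.1 CPM with CPI-455, and it fell by 1.47 (SE 0.17, FDR = 7.43e-05). FASTKD2, which binds the large ribosomal RNA, was at 65.0 and 63.0 CPM with vehicle and at 33.2 and 32.9 CPM with CPI-455. A log2 fold change of -0.95 (SE 0.14, FDR = 0.00027) left it just under the 2-fold line, and it crossed that line with library totals (-1.14) and with no filter on low counts (-1.11).

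MRM1, MRM2 and MRM3 are the 2′-O-methyltransferases of the large mitochondrial ribosomal RNA, and MRM2 and MRM3 fell while MRM1 was not called. MRM2 (chr7:2234231-2242198, minus strand) was at 106 and 102 CPM with vehicle and at 20.9 and 30.5 CPM with CPI-455, and it fell by 2.04 on the log2 scale (SE 0.18, FDR = 1.2e-05). MRM3 was at 46.2 and 49.0 CPM with vehicle and at 14.2 and 12.9 CPM with CPI-455, and it fell by 1.81 (SE 0.17, FDR = 1.76e-05). In MRM3 721 of 2065 exon bases are shared with another gene. MRM1 had 55 and 42 counts with CPI-455 and a log2 fold change of -0.35 (SE 0.32, FDR = 0.36). Its value was -0.0013 without vehicle replicate 1, -0.58 without vehicle replicate 2, -0.13 without CPI-455 replicate 1 and -0.56 without CPI-455 replicate 2, and -0.85 (FDR = 0.0454) with the length and GC trend removed. NSUN4, which methylates the small ribosomal RNA, was at 0.083 (SE 0.16, FDR = 0.675).

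Among the nuclear regulators only NRF1 was called. It was at 35.2 and 35.3 CPM with vehicle and at 17.2 and 9.32 CPM with CPI-455. The treated libraries were both below the controls but differed from each other, resting on 153 and 47 counts. NRF1 fell by 1.36 on the log2 scale (SE 0.25, FDR = 0.00111), with values of -1.03 without CPI-455 replicate 2 and -1.92 without CPI-455 replicate 1.

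PPARGC1A, which encodes PGC-1α, was the least expressed member per length, with 63 and 87 counts (2.98 and 3.98 CPM) with vehicle and 25 and 22 counts (2.81 and 4.36 CPM) with CPI-455. The groups overlapped, and a log2 fold change of 0.0068 with an SE of 0.43 leaves room for a change in either direction (FDR = 0.989). PPARGC1B was at -0.33 (SE 0.18, FDR = 0.143) and ESRRA, which encodes ERRα, at -0.44 (SE 0.19, FDR = 0.0671). Neither passed, although ESRRA did with replicate number as a block (-0.46, FDR = 0.043) and without CPI-455 replicate 1 (-0.71, FDR = 0.000112), and it was at -0.24 without CPI-455 replicate 2.

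**Figure D2:**
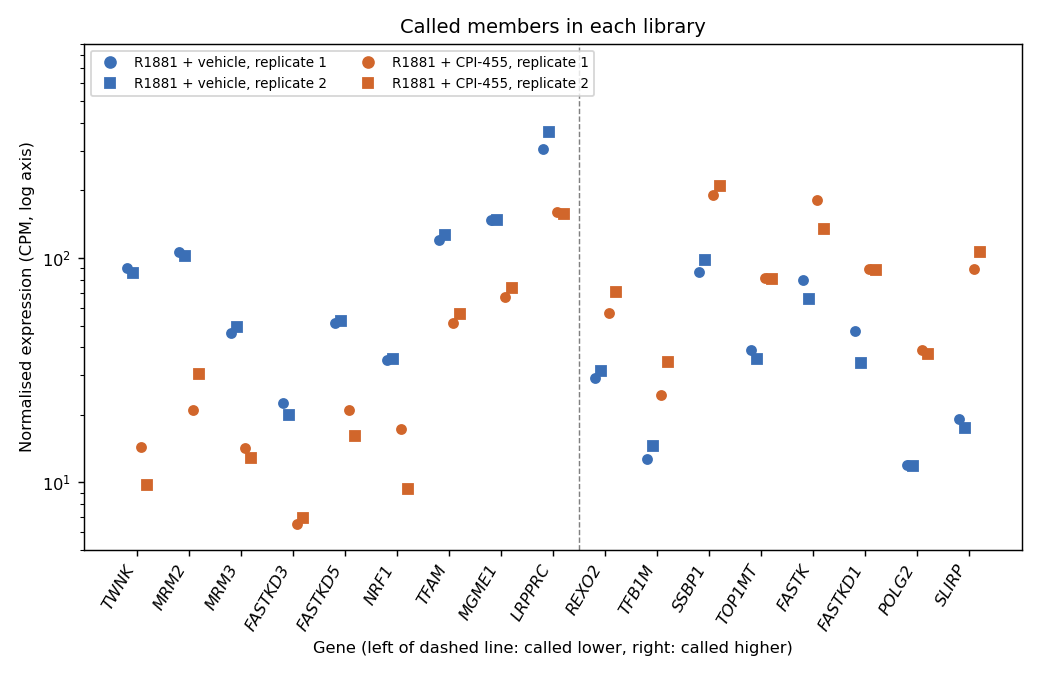
Normalised expression (CPM, log axis) of the 17 called members in each of the 4 libraries, ordered by fold change, where colour is treatment and shape is replicate. For every called member both CPI-455 libraries lie on the same side of both vehicle libraries, from TWNK (89.9 and 85.8 against 14.4 and 9.72 CPM) to SLIRP (19.2 and 17.4 against 89.2 and 107 CPM). The members were called on these same libraries, so this separation adds no support. Of tested protein-coding genes 34.5% lay above in this way and 48.8% below.

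Over all 40 members, both CPI-455 libraries lay above both vehicle libraries in 15 and below them in 19, and the groups overlapped in 6. The same held for 34.5% of tested protein-coding genes above and 48.8% below. Per kilobase of exon, the members' vehicle levels (FPKM, which is CPM divided by the exon length in kilobases) ran from 0.32 FPKM for PPARGC1A to 69.6 FPKM for HSD17B10, with a median of 10.8 FPKM against 5.86 FPKM over tested protein-coding genes. The median exon length was 4204 bases and the median exon GC content 44.6%, against 5068 bases and 48.6% for tested protein-coding genes.

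Ratios between members within a library do not depend on how libraries are scaled against each other. They can still depend on a trend with gene length and GC. With that trend removed the log2 fold changes were -0.54 for LRPPRC and 2.48 for SLIRP, in place of -1.08 and 2.41. Those of TFAM and POLRMT were -0.72 and 0.51, in place of -1.20 and 0.49. The pairs below were chosen after their values had been seen, so they are a description with no test. Per kilobase, the ratio of SLIRP to LRPPRC was 0.233 and 0.177 in the vehicle libraries and 2.06 and 2.52 in the CPI-455 libraries, an 11.2-fold difference of the means. LRPPRC was thus the more abundant of the pair with vehicle and SLIRP with CPI-455.

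For replication, the ratio of TWNK to POLG went from 1.97 and 2.06 in the controls to 0.216 and 0.185 under CPI-455, and the ratio of TWNK to SSBP1 from 1.47 and 1.25 to 0.107 and 0.0659. The means differed 10.0-fold and 15.7-fold. The 2 polymerase subunits came closer together, with POLG2 to POLG at 0.271 and 0.294 with vehicle and at 0.605 and 0.736 with CPI-455. For transcription, TFAM to POLRMT went from 1.25 and 1.29 to 0.356 and 0.436. TFB1M, which methylates ribosomal RNA, was set against TFB2M, and that ratio went from 0.651 and 0.752 to 1.58 and 2.01. The degradosome pair moved the least of the 7 pairs, with PNPT1 to SUPV3L1 at 0.965 and 0.912 with vehicle and at 1.24 and 1.22 with CPI-455.

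**Figure D3:**
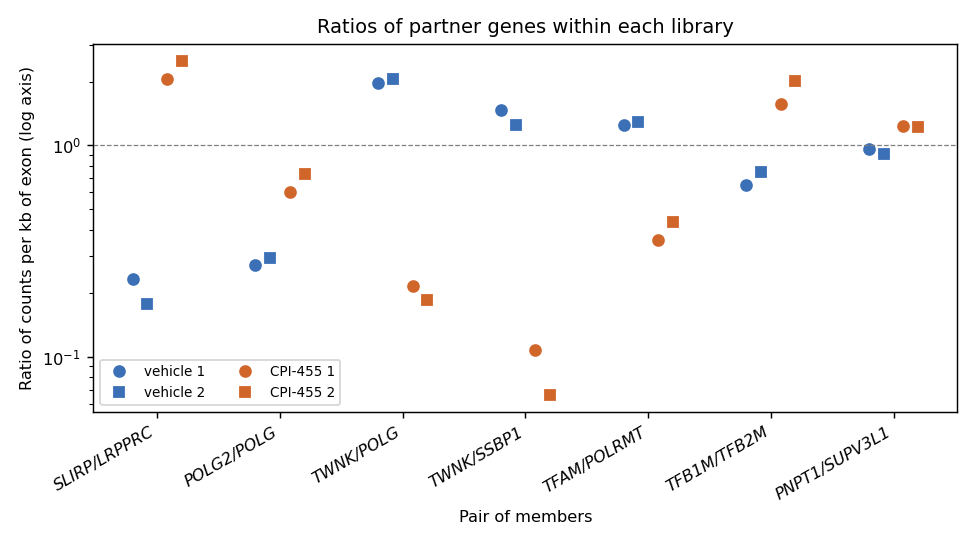
Ratio of 7 pairs of members within each library (counts per kilobase of exon of the first gene over the second, log axis), with the dashed line at equal levels, colour for treatment and shape for replicate. The SLIRP to LRPPRC ratio crosses the line from 0.233 and 0.177 to 2.06 and 2.52, and TFB1M to TFB2M and PNPT1 to SUPV3L1 cross it the same way. The ratios of TWNK to POLG, TWNK to SSBP1 and TFAM to POLRMT cross it in the other direction, and POLG2 to POLG stays below it.

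The RNAs on which this machinery works were measured in the same libraries. Of the 15 mitochondrially encoded mRNAs and ribosomal RNAs, all 13 mRNAs were called lower and the median log2 fold change of the 15 was -4.19. MT-ND1, a complex I subunit, was at 1614 and 1309.9 CPM with vehicle and at 44.4 and 49.6 CPM with CPI-455, and it fell by 4.97 (SE 0.15, FDR = 2.74e-07). The large ribosomal RNA MT-RNR2 was instead at 4242 and 3769 CPM with vehicle and at 11072 and 8907 CPM with CPI-455 (log2 fold change 1.32, SE 0.13, FDR = 2.1e-05). The small ribosomal RNA MT-RNR1 was not called, at 1152 and 979 CPM with vehicle and 1230.0 and 598 CPM with CPI-455 (log2 fold change -0.22, SE 0.26, FDR = 0.495). Nuclear copies of mitochondrial genes exist, and fragments that matched several places were not counted. How the RNA was selected before sequencing is not given in the sources used here, and poly(A) selection and ribosomal RNA depletion would sample these mRNAs and ribosomal RNAs differently. Whether the members' changes played a part in those of the mitochondrial RNAs was not tested, and fewer mitochondrial genomes and less RNA from each cannot be told apart here.

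Among 22 other genes of mitochondrial DNA repair, nucleoids and nucleotide supply, 2 were called higher (MUTYH and, named after its value was seen, ATAD3B) and 2 lower (FEN1 and, likewise, RRM2B), with a median log2 fold change of 0.22. MUTYH, an adenine glycosylase of base excision repair, rose by 1.37 (SE 0.18, FDR = 0.000134), and FEN1, a flap endonuclease of nuclear and mitochondrial DNA, fell by 2.66 (SE 0.12, FDR = 5.83e-07). Among 40 other genes of mitochondrial RNA modification, processing and granules, 6 were called higher and 9 lower, with a median of -0.065. QTRT1, a subunit of the queuosine-inserting transfer RNA enzyme, rose by 3.12 (SE 0.18, FDR = 1.4e-06), and the helicase DDX28 fell by 2.19 (SE 0.19, FDR = 1.21e-05). Among 15 other regulators of mitochondrial biogenesis, 1 was called higher and 4 lower, with a median of -0.26, and the corepressor NRIP1 fell by 2.45 (SE 0.19, FDR = 6.27e-06). The regulator called higher, PERM1, is named after its value was seen and rests on 6, 3, 10 and 12 counts. The counts of these lists are to be read beside the 15.6% of tested protein-coding genes called higher and the 24.4% called lower.

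**Figure D4:**
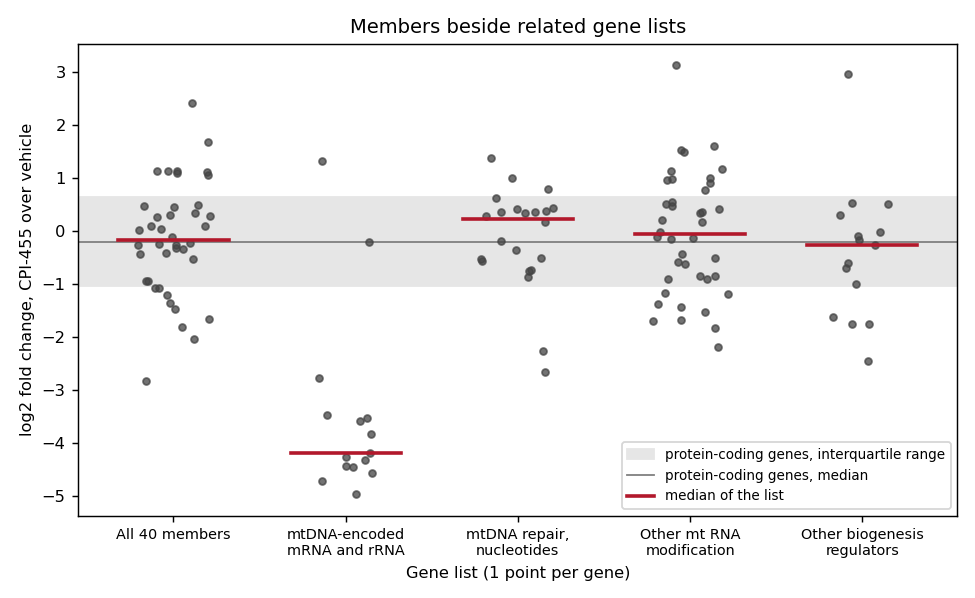
Log2 fold change (CPI-455 over vehicle) of each gene in the 40 members and in 4 related lists, where each point is a gene and each red bar is the median of its list, above a grey band for the interquartile range of tested protein-coding genes. The members' median of -0.18 is shown beside the -0.21 of protein-coding genes for the reported fit (0.20 and -0.052 with the length and GC trend removed), and the mitochondrially encoded RNAs lie far below at -4.19.

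The called members differed in how firmly their calls held over 17 other ways of fitting the same counts. Of the 8 called higher, POLG2 and SLIRP were called in all of them. Of the 9 called lower, TWNK, FASTKD3, FASTKD5, MRM2, MRM3 and NRF1 were. The other 6 called higher (SSBP1, TOP1MT, TFB1M, REXO2, FASTK and FASTKD1) dropped under 2-fold with library totals (0.87 for REXO2 to 0.94 for FASTKD1) and with no filter (0.91 for REXO2 to 0.98 for FASTKD1). MGME1 and LRPPRC dropped under 2-fold with upper-quartile scaling (-0.90 for each), with protein-coding genes fitted alone and with libraries thinned to the shallowest. FASTK also dropped to 0.97 when the trend on length and GC was removed. No called member changed direction in any of these fits.

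**Figure D5:**
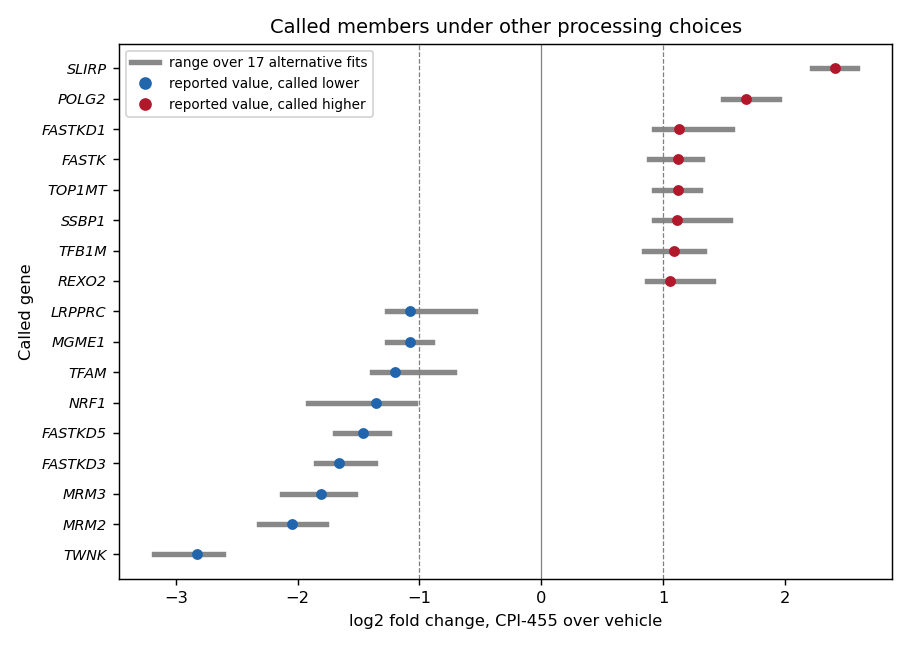
Log2 fold change (CPI-455 over vehicle, x axis) of the 17 called members (y axis), with the reported value as a point, red for called higher and blue for called lower, and the range over 17 alternative fits as a grey bar. The bars of POLG2, SLIRP, TWNK, FASTKD3, FASTKD5, MRM2, MRM3 and NRF1 stay outside the dashed 2-fold lines.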

How the data were processed

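Reads were trimmed by the authors with Trim Galore under a phred threshold, STAR placed them on GRCh38, and featureCounts v1.5.0-p1 assigned them to the genes of Ensembl release 83. What the authors deposited is a raw count for every gene in each library. Per the file headers paired-end fragments were counted, with no strand option set and multi-mapping or multi-gene fragments left uncounted. How RNA was selected is not given in the sources used here.

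From these counts, CPM on TMM library sizes and FPKM (per kilobase of exon) were computed. Genes passing filterByExpr (minimum count 10) were fitted with edgeR 4.0.16 (R 4.3.3) by quasi-likelihood on all 4 libraries with no covariate, and Benjamini-Hochberg adjustment ran over all 17600 genes. Genes were called at an FDR below 0.05 if they also differed 2-fold or more. The code was tested on simulated data. At 3 counts, a gene measures 0.142 and 0.137 CPM in the vehicle libraries and 0.337 and 0.595 CPM in the CPI-455 libraries. P-values rest on 2 cultures per group, and the fit estimates the spread of each gene with help from the other tested genes.

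The members and all gene lists were chosen with earlier results of these data known. All 40 members are accounted for, and full values are given for called members, for POLRMT, TFAM, TWNK, POLG, LRPPRC and PPARGC1A, and for the 3 members past the FDR nearest to 2-fold (LRPPRC, FASTKD2 and REXO2). From each related list the called gene with the largest change in each direction is named, at a mean log2 CPM of at least 2. Alternatives covered scaling, filters, tool (DESeq2 1.42.0), depth, length and GC trend (mgcv 1.9.3), pairing, threshold and each library left out. Promoter sequences are RefSeq's, and NRF1, TOP1MT, MTERF3, TWNK and FASTKD5 had none in the table.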

Additional observations from a re-analysis of the deposited data

How the results depend on the processing

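With 2 libraries per group no library could be tested for lying apart, and the lower depth of the CPI-455 libraries limits genes with few counts there (PRORP, MRM1, PPARGC1A). The counts of 8 members higher and 9 lower held within 1.5 times under all alternatives except 3. With library totals 2 were higher, with no filter 2, and with a test against a 2-fold change (glmTreat) 2 were higher and 5 lower. Library totals moved the median of all genes by -0.19, upper-quartile scaling by 0.17 and no filter by -0.37. The members' median of -0.18 became -0.37 with library totals, -0.33 with no filter, -0.0044 with upper-quartile scaling, -0.0079 with thinned libraries, 0.00088 with protein-coding genes alone and 0.20 with the trend on length and GC removed, against protein-coding medians of -0.40, -0.46, -0.034, -0.11, -0.029 and -0.052. Leaving out each library in turn, which assumes that a lone sample varies like the other group, gave medians from -0.24 to -0.090, 6 to 8 members higher and 8 to 10 lower.

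The replicate numbers were taken as unpaired, since same-numbered libraries deviated with a correlation of 0.040. A replicate block gave 8 higher and 9 lower with a median of -0.18, and with the length and GC trend removed as well 7 and 7 with a median of 0.20. No call was lost or gained with the block alone, but TEFM (FDR = 0.0601) no longer passed the FDR, and TRMT10C (FDR = 0.0177) and ESRRA (FDR = 0.043) did.

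Changes of direction were seen only in 9 members that were not called. With the trend on length and GC removed, without and with the block, the log2 fold changes were 0.19 and 0.19 for MTERF1, 0.034 and 0.033 for MTERF4, 0.22 and 0.22 for GRSF1, 0.23 and 0.23 for SUPV3L1, and -0.70 and -0.70 for HSD17B10 (FDR = 0.000684 and 1.02e-05). With library totals and with no filter they were -0.16 and -0.12 for MTERF2, -0.090 and -0.055 for HSD17B10, -0.11 and -0.073 for NSUN4, and -0.18 and -0.15 for PPARGC1A. SUPV3L1 was at 0.051 with upper-quartile scaling, 0.056 with protein-coding genes alone and 0.022 with thinned libraries. Without each library in turn MTERF2 ran from -0.19 to 0.20, MTPAP from -0.14 to 0.64, NSUN4 from -0.11 to 0.23 and PPARGC1A from -0.31 to 0.32. The cause of these shifts was not tested.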

Other observations

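A few mitochondrial genes outside the 40 members are described here. They were singled out with their values in view, so they do not stand for a pattern. QTRT1 and QTRT2 encode the catalytic and accessory subunits of the enzyme that inserts queuosine. QTRT1 was at 33.0 and 26.4 CPM with vehicle and at 296 and 218 CPM with CPI-455, whereas QTRT2 was at 65.9 and 65.5 CPM with vehicle and at 24.5 and 20.8 CPM with CPI-455. Their log2 fold changes were 3.12 (SE 0.18, FDR = 1.4e-06) and -1.52 (SE 0.15, FDR = 2.66e-05).

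MTO1 and GTPBP3, which act together on the wobble uridine, were at -1.84 (SE 0.21, FDR = 6.6e-05) and 0.42 (SE 0.13, FDR = 0.0222), and TRMU, which thiolates the same base, was at 1.16 (SE 0.14, FDR = 6.96e-05). Of the pseudouridine synthase genes TRUB2, PUS1, RPUSD3 and RPUSD4, TRUB2 was at -1.71 (SE 0.15, FDR = 1.25e-05), PUS1 at 0.17 (SE 0.13, FDR = 0.287), RPUSD3 at 0.98 (SE 0.16, FDR = 0.000587) and RPUSD4 at 1.48 (SE 0.18, FDR = 9.67e-05). Other related genes had values of the same sign, with NSUN2 at -0.85 and NSUN3 at -1.17, CLPX at -0.56 and CLPP at -0.73, and ATAD3A at 0.78 and ATAD3B at 1.00. For the supply of deoxynucleotides, RRM2B, a ribonucleotide reductase subunit used outside S phase, was at 88.4 and 102 CPM with vehicle and at 16.8 and 23.4 CPM with CPI-455 (log2 fold change -2.27, SE 0.18, FDR = 7.26e-06). The differences between partner genes were not tested.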
